A study of Mus musculus with 4 samples.

Results

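Alveolar macrophages live in the airspace and take up and break down surfactant lipid. The nuclear receptor PPARG, induced by GM-CSF from neighbouring epithelial cells, switches on their program of lipid uptake, binding, storage and export. The genes described here are 10 genes of lipid handling, of 32289 in the deposited tables: Pparg itself; Lpl and Cd36, which free and take up fatty acids; Fabp1, Fabp4 and Fabp5, which bind fatty acids in the cytosol; Plin2 and Cidec, which coat and enlarge lipid droplets; Abcg1, which exports cholesterol; and Lepr, the leptin receptor. They were chosen by symbol, each symbol matched 1 gene, and all 10 reached 10 UMIs for every 1e6 UMIs in alveolar macrophage-like cells of 1 or both libraries.

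Single-cell RNA was counted in 4 libraries from mouse lung tumours. Per the labels, all mice carried frt-flanked p53 (p53frt), a CreERT2 at Rosa26 that needs Flp to be switched on (Rosa-FSF-CreERT2) and floxed Hnf4a (Hnf4aflox). The sample titles call the vehicle arm KP and the tamoxifen arm KPH, while the genotype label is the same in both. Adenoviral FlpO under the mouse surfactant protein C promoter (mSPC-FlpO) started the tumours, and mice received vehicle or tamoxifen 10 weeks after intubation. The vehicle is given as ethanol in one label and as corn oil in another. Cells came from tumours taken after 2 more weeks. Cells were taken before depletion or after removal of CD45+ and CD31+ cells on magnetic beads. Each of the 4 combinations is 1 library, and the number of mice or tumours behind it is not stated. CreERT2 is expected in Flp-exposed cells only, so the macrophages of both arms are host cells around the tumour. The comparison between arms asks how these genes sit in the lung's cells when Hnf4a has been deleted in the tumour, as the design states. The arms also differ in tamoxifen itself, so the drug and the deletion cannot be told apart here.

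Hnf4a counts were not lower in the libraries labelled tamoxifen. In epithelial-like cells its level was 49.0 UMIs per 1e6 UMIs (CPM) in the vehicle library and 80.0 CPM in the library labelled tamoxifen before depletion, and 47.5 and 78.5 CPM after it. These counts are per gene and from the 3′ end, so transcripts that lack the deleted part are still counted, and the value does not test the deletion itself. Therefore "the library labelled tamoxifen" is used throughout, and every direction below is a direction between labelled libraries. In alveolar macrophage-like cells Hnf4a had 3 UMIs in the vehicle library and 7 in the other. Pairs of libraries shared 10 to 18 of their 6558 to 7867 barcodes.

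After filtering, 7079 and 6111 cells remained before depletion (vehicle, labelled tamoxifen) and 6923 and 7358 after it. Cells were clustered with the 10 genes left out, and clusters were named from marker lists. Alveolar macrophage-like cells numbered 1438 (20.3% of kept cells) in the vehicle library and 1907 (31.2%) in the library labelled tamoxifen. Their median depth was 8348 and 8676 UMIs per cell. The 9 alveolar macrophage markers summed to 4407 and 4463 CPM there, with none at 0, against 117 and 173 CPM in epithelial-like cells of the same libraries. Individual markers differed more than the sum: Marco, a scavenger receptor, was at 42.7 and 21.2 CPM, and Car4, a carbonic anhydrase, at 504 and 647 CPM. Fat cells also use several of these lipid genes, and the 7 adipocyte markers summed to 0.465 and 0.675 CPM, with Lep, Adrb3 and Cfd at 0 in both libraries. The libraries after depletion kept 2 and 5 alveolar macrophage-like cells, so macrophages are described before depletion only. Levels in CPM are summed UMIs of a population over all UMIs of that population, and of a pair of values the vehicle library comes first. With 1 library per group no test was possible, and the 95% intervals given (exact Poisson for levels, exact binomial for shares and ratios) cover counting error only.

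Of the 10 genes, 7 were highest in alveolar macrophage-like cells in both libraries among the 15 populations with at least 50 cells: Pparg, Fabp1, Lpl, Plin2, Cidec, Abcg1 and Lepr. Fabp4 and Cd36 were highest in endothelial-like cells, and Fabp5 was highest in dendritic cell-like cells of the vehicle library. Per cell, after thinning every cell to 2000 UMIs (15 and 13 shallower alveolar macrophage-like cells were left out), an alveolar macrophage-like cell held a UMI of 4.39 of the 10 genes on average in the vehicle library and 4.23 in the library labelled tamoxifen. The averages were 1.70 and 1.82 in monocyte-like cells, 1.39 and 1.43 in epithelial-like cells and 0.266 and 0.258 in B cell-like cells. Cells with none of the 10 made up 0.211% and 0.370% of alveolar macrophage-like cells.

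**Figure D1:**
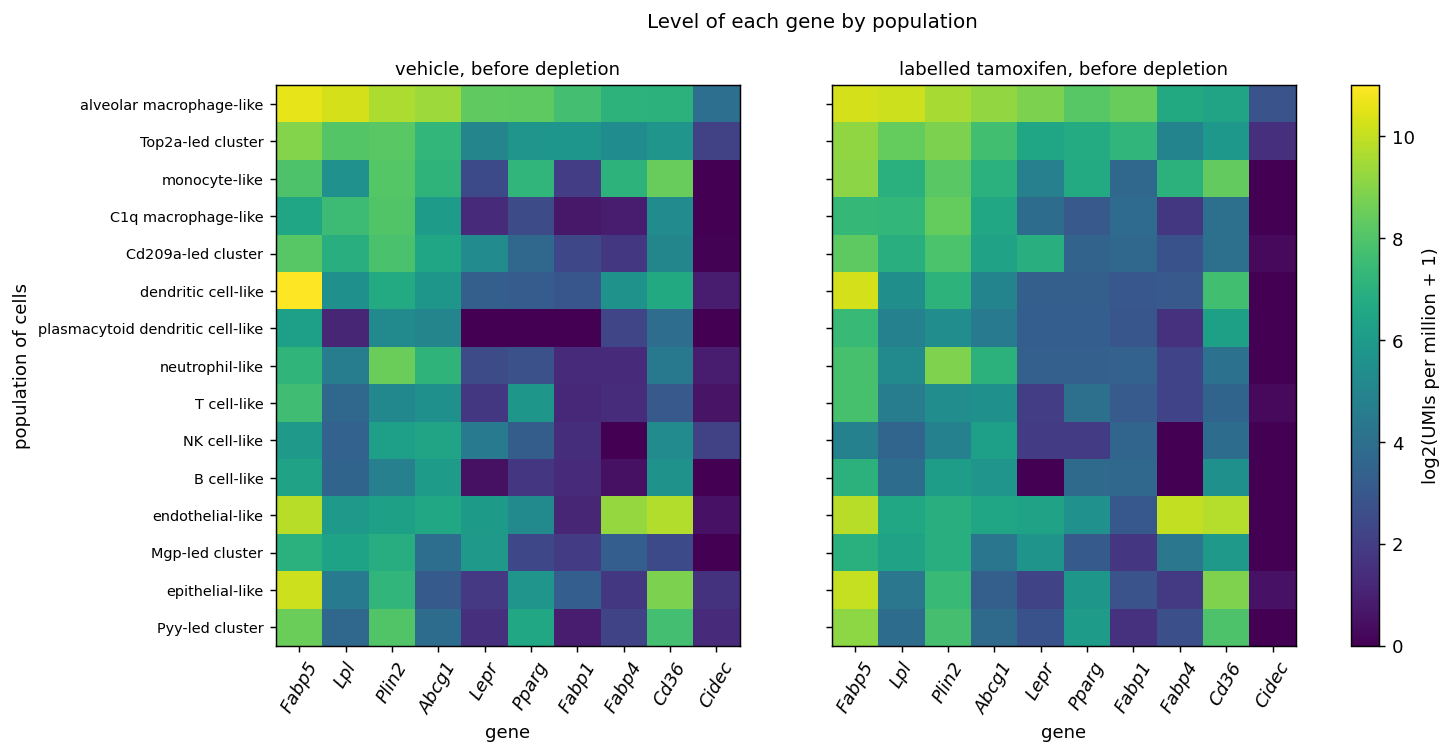
Level of each gene, as log2(CPM + 1) on the colour scale, in 15 populations (rows) of the vehicle library (left) and the library labelled tamoxifen (right), both before depletion. The top row, alveolar macrophage-like cells, holds the highest value of its column for 7 genes in both libraries, while Cd36 and Fabp4 are highest in endothelial-like cells.

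Pparg (chr6:115360951-115490399, plus strand of mm10), the regulator of the group, stood at 306 CPM (95% interval 296 to 315) in alveolar macrophage-like cells of the vehicle library and 284 CPM (277 to 292) in the library labelled tamoxifen. The log2 ratio, labelled tamoxifen over vehicle with 1 CPM added to each, was -0.10, and 0.10 with doublets kept, so it has no stable direction. The next populations were monocyte-like cells at 148 CPM in the vehicle library and the Top2a-led cluster, a cluster of dividing myeloid cells, at 107 CPM in the other. Among the 15 populations, the Pparg level of alveolar macrophage-like cells was thus more than 2-fold above every other in each library. Clusters inside a population were not ranked. The small T cell-like cluster led by Cd163l1, described below, was close to the alveolar macrophage-like level in the vehicle library. A share of 37.3% (34.8% to 39.9%) and 36.5% (34.4% to 38.8%) of thinned alveolar macrophage-like cells held a Pparg UMI, against 0 of 410 and 0 of 190 thinned B cell-like cells. A count of 0 allows 3 such cells, or shares of up to 0.732% and 1.58% at the thinned depth only. Without thinning the shares were 75.6% and 74.9% in alveolar macrophage-like cells and 0.704% and 2.40% in B cell-like cells (median depths of 4897 and 4547 UMIs). Outside the myeloid cells Pparg was also found in epithelial-like cells, at 52.6 and 55.8 CPM before depletion and 47.3 and 49.6 CPM after it. Within these it ranged after depletion from 3.76 and 5.27 CPM in the cluster led by Lyz1 to 88.6 and 81.5 CPM in the cluster led by Ttr, and reached 185 CPM in the cluster led by Spink5 of the library labelled tamoxifen.

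Lpl (chr8:68880491-68907448, plus strand) encodes lipoprotein lipase, which releases fatty acids from circulating lipoproteins. It was at 1260 CPM (1241 to 1280) in alveolar macrophage-like cells of the vehicle library and at 1133 CPM (1118 to 1149) in the library labelled tamoxifen, a log2 ratio of -0.15. These cells held 73.5% and 81.4% of all Lpl UMIs of their library while making up 20.3% and 31.2% of its cells. The Top2a-led cluster followed at 268 and 337 CPM and C1q macrophage-like cells at 184 and 153 CPM. Epithelial-like cells were at 21.7 and 19.4 CPM, and T cell-like cells at 12.3 and 23.9 CPM. Of the thinned alveolar macrophage-like cells, 84.8% and 82.3% held a Lpl UMI (97.8% and 97.5% without thinning), against 1.42% and 1.80% of T cell-like cells with median depths of 5806 and 6000 UMIs.

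Cd36 (chr5:17781690-17888801, minus strand), the fatty acid translocase and scavenger receptor, was higher in several other populations than in alveolar macrophage-like cells. Its level in alveolar macrophage-like cells was 133 CPM (127 to 140) in the vehicle library and 84.6 CPM (80.3 to 88.9) in the library labelled tamoxifen, the fifth and the sixth highest of the 15 populations. Endothelial-like cells reached 847 and 872 CPM, epithelial-like cells 459 and 462 CPM, and monocyte-like cells 348 and 324 CPM. Only 8.92% and 7.56% of all Cd36 UMIs came from alveolar macrophage-like cells. The log2 ratio between the libraries was -0.65 in these cells (interval -0.76 to -0.55), 0.04 in endothelial-like cells and 0.01 in epithelial-like cells. In other myeloid cells it was -1.26 in C1q macrophage-like cells, -0.98 in the Cd209a-led cluster and -0.35 in neutrophil-like cells. It was -0.10 in monocyte-like cells, 0.11 in the Top2a-led cluster and 0.98 in dendritic cell-like cells.

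The fatty acid binding proteins differed in where they were found. Fabp5 (chr3:10012548-10016607, plus strand), the epidermal form, was broad: 1557 and 1270 CPM in alveolar macrophage-like cells, 1139 and 1040 CPM in epithelial-like cells and 912 and 901 CPM in endothelial-like cells. Dendritic cell-like cells had 2029 and 1250 CPM, and in the library labelled tamoxifen their interval (1200 to 1301) overlapped that of alveolar macrophage-like cells (1254 to 1287). The dendritic level differed between clusters. It was highest in the cluster led by Ccl22, a chemokine of mature dendritic cells, at 3181 and 2709 CPM, while the cluster led by Xcr1, the receptor of cross-presenting dendritic cells, was at 15.2 and 42.2 CPM. Fabp4 (chr3:10204088-10208576, minus strand), the adipocyte form that endothelium also uses, was at 615 and 1022 CPM in endothelial-like cells, 138 and 101 CPM in alveolar macrophage-like cells and 137 and 133 CPM in monocyte-like cells. The alveolar macrophage-like and monocyte-like levels did not differ beyond counting error in the vehicle library (132 to 145 against 118 to 159 CPM). Epithelial-like cells held 2.46 and 2.65 CPM of Fabp4.

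Fabp1 (chr6:71199827-71205023, plus strand), the liver form, was the most restricted of the 3. It stood at 207 CPM (200 to 215; 2675 UMIs) in alveolar macrophage-like cells of the vehicle library and at 347 CPM (338 to 355; 6161 UMIs) in the library labelled tamoxifen. These cells held 81.4% and 85.4% of all Fabp1 UMIs, and 26.8% and 34.8% of them carried one after thinning (51.9% and 62.5% before), against 0.488% and 1.05% of thinned B cell-like cells. The Top2a-led cluster came next at 53.6 and 150 CPM. Every other population was below 10 CPM in the vehicle library and below 14 CPM in the library labelled tamoxifen, and B and T cell-like cells were at 1.57 and 1.30 CPM in the former and 12.0 and 7.83 CPM in the latter. In the library labelled tamoxifen, the levels of these other populations were thus close to or below those of B cell-like cells. The 7 other measured genes of the family were near 0 in alveolar macrophage-like cells: Fabp7 had 17 and 48 UMIs and Fabp12 had 8 and 13, and none of the 7 reached 10 CPM.

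The Fabp1 promoter is shown because the gene's log2 ratio between the labelled libraries differed in sign between macrophages and epithelial cells. It was 0.74, under 2-fold, in alveolar macrophage-like cells. In epithelial-like cells it was -0.47, also under 2-fold, before depletion and -3.44 after it. Whether the promoter has a part in these values was not tested. A direct repeat of a hexamer with 1 base between is the kind of element bound by PPAR receptors with RXR and by HNF4A. The motif AGGNCANAGGNCA was searched on both strands in the windows from 250 bases before to 50 after each start in RefSeq (GRCm38.p6), where 6 of the 10 genes have 10 windows. It matched in 125 of 32851 windows (0.381%) and in 1 of the 10 windows, that of Fabp1, on the strand opposite to the gene at positions -67 to -55 from the start. The single hexamer AGGTCA, which overlaps this match, was found in 16.3% of all windows and in 5 of the 10, among them windows of Plin2, Cd36, Fabp1 and Pparg. The Fabp1 start given above, 71199827, is that of GENCODE and lies upstream of the RefSeq start used here. The 150 bases before the RefSeq start, chr6:71199729-71199878 on the plus strand, include the GENCODE start and have the match in capitals.
Fabp1: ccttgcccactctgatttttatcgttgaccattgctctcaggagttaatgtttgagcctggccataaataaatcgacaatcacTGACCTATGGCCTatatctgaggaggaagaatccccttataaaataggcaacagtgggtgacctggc

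Plin2 and Cidec act on the lipid droplet. Plin2 (chr4:86648386-86670060, minus strand), a coat protein of droplets in most cell types, was at 809 and 763 CPM in alveolar macrophage-like cells, followed by neutrophil-like cells at 371 and 467 CPM. In the library labelled tamoxifen the Top2a-led cluster (451 CPM) did not differ from the neutrophil-like cells beyond counting error. In epithelial-like cells it was at 150 and 168 CPM. Cidec (chr6:113424634-113435760, minus strand), which fuses droplets into larger ones, was scarce everywhere. Alveolar macrophage-like cells had 15.1 CPM (195 UMIs in 152 cells) in the vehicle library and 6.13 CPM (109 UMIs in 94 cells) in the library labelled tamoxifen. The Top2a-led cluster, at 3.39 and 1.79 CPM, was next. B, monocyte-like and C1q macrophage-like cells were at 0 in both libraries. The related droplet genes Plin4 and Plin5 had no UMI in alveolar macrophage-like cells of these libraries, Plin1 had 22 and 16, and Plin3 was at 92.8 and 83.7 CPM.

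Abcg1 (chr17:31057675-31117988, plus strand), which exports cholesterol to lipoprotein particles, was at 665 CPM (651 to 679) and 602 CPM (591 to 613) in alveolar macrophage-like cells. The Top2a-led cluster was next at 157 and 205 CPM, then neutrophil-like cells at 143 and 134 CPM, and in the vehicle library these neighbours and monocyte-like cells (142 CPM) did not differ beyond counting error. Epithelial-like cells were lowest of the 15 populations at 7.64 and 9.14 CPM. Lepr (chr4:101717404-101815352, plus strand), whose ligand leptin comes from fat, was at 317 CPM (307 to 327) and 454 CPM (444 to 464) in alveolar macrophage-like cells, which held 76.2% and 80.4% of its UMIs. Next came endothelial-like cells at 63.3 CPM in the vehicle library and the Cd209a-led myeloid cluster at 121 CPM in the other. A Lepr UMI was found in 28.7% and 39.3% of thinned alveolar macrophage-like cells (53.8% and 66.9% without thinning). Leprot overlaps the Lepr locus and had 90.4 and 103 CPM in these cells, so the division of UMIs between both genes is uncertain.

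**Figure D2:**
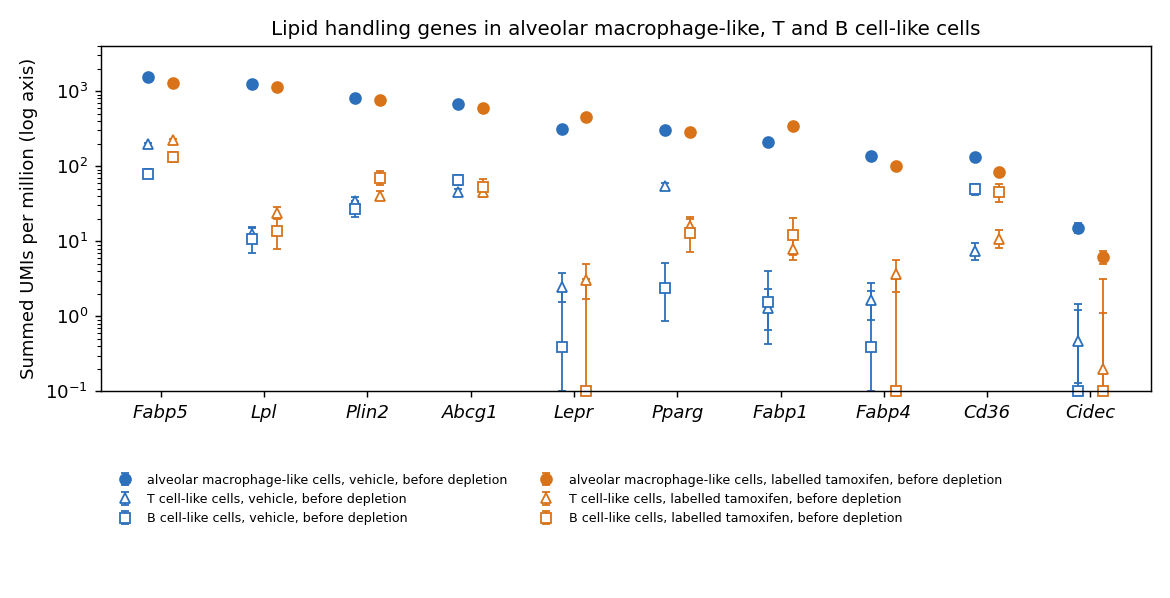
Level of each gene in CPM (log axis; a level of 0 is drawn on the lower edge) with 95% Poisson intervals. Filled circles are alveolar macrophage-like cells, open triangles T cell-like cells and open squares B cell-like cells, with the vehicle library in blue and the library labelled tamoxifen in orange. Filled circles lie above the open symbols of their library for every gene, and Fabp1 and Lepr are the genes whose orange circle lies above the blue one.

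Alveolar macrophage-like cells formed 2 clusters. One was led by Wfdc21, Chil3 and Ear10 (688 and 728 cells) and one by Lepr, Htr2c and Kcnip4 (750 and 1179 cells). They are called the Wfdc21-led and Htr2c-led clusters. The Htr2c-led cluster made up 52.2% (49.5% to 54.8%) of alveolar macrophage-like cells in the vehicle library and 61.8% (59.6% to 64.0%) in the library labelled tamoxifen. Although the 10 genes were not used for clustering, the clusters come from the same cells, so the differences between them are a description.

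Pparg and Lepr were higher in the Htr2c-led cluster and the other 8 genes were higher in the Wfdc21-led one, in both libraries. Lepr was at 116 CPM in the Wfdc21-led and 459 CPM in the Htr2c-led cluster of the vehicle library, and at 158 and 591 CPM in the library labelled tamoxifen, folds of 3.94 and 3.75. Pparg was at 199 and 381 CPM, and at 202 and 322 CPM. Fabp4 went the other way, at 230 and 73.6 CPM and at 204 and 52.9 CPM, as did Fabp5, at 2214 and 1094 CPM and at 2356 and 767 CPM. Lpl differed least, by log2 ratios of -0.10 and -0.06, at 1310 and 1225 CPM and at 1163 and 1119 CPM. For Cd36 the interval of the log2 ratio between clusters spanned 0 in the vehicle library (-0.24 to 0.04) but not in the library labelled tamoxifen (-0.76 to -0.46). The lipid genes therefore did not vary as a block: the regulator and the leptin receptor were high where Fabp4 and Fabp5 were low.

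**Figure D3:**
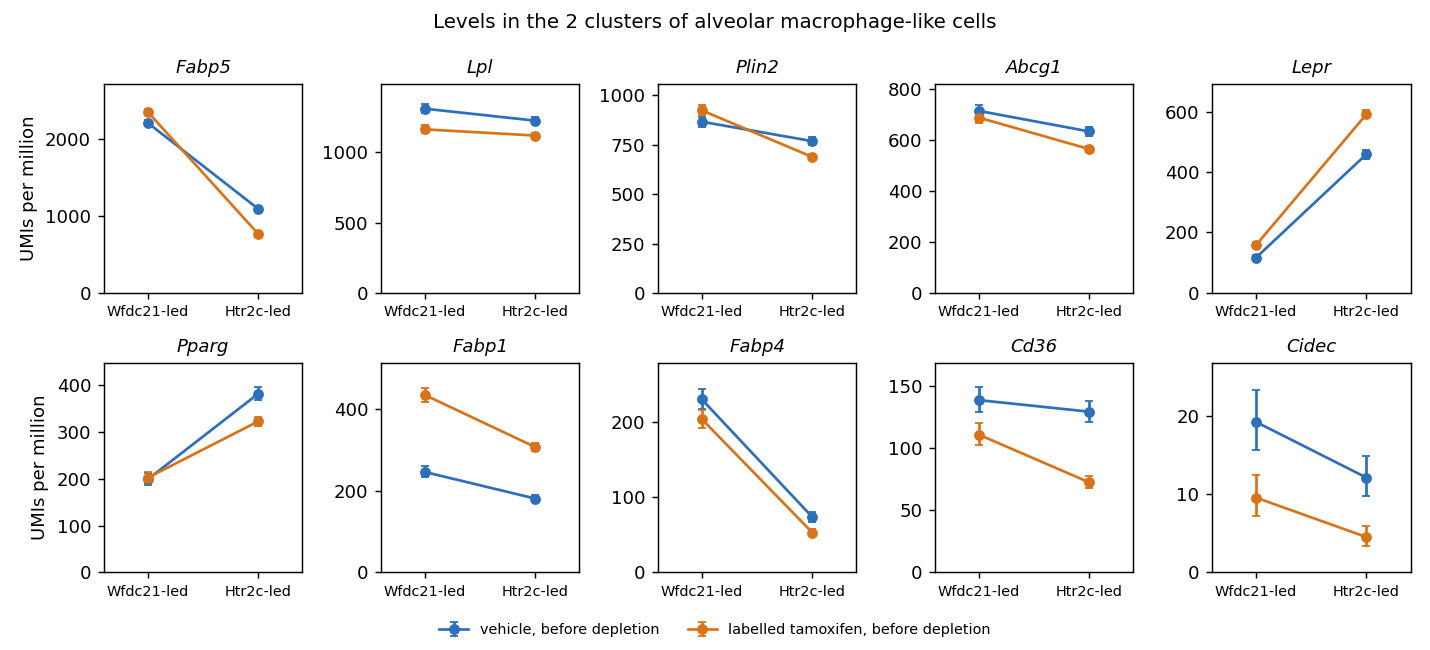
Level in CPM with 95% Poisson intervals of each gene in the Wfdc21-led and Htr2c-led clusters, with the vehicle library in blue and the library labelled tamoxifen in orange. Lines join the clusters of a library. Lepr and Pparg slope upward toward the Htr2c-led cluster, Fabp4 and Fabp5 slope downward, and the Fabp1 lines run apart at both clusters.

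Between the labelled libraries, 1 of the 10 genes, Cidec, was at least 2-fold apart in alveolar macrophage-like cells, where 0.381% of the 7883 genes that reached 10 CPM were. Cidec was lower in the library labelled tamoxifen by a log2 ratio of -1.18 (interval without added CPM, -1.65 to -0.96). Its 10 highest cells held 16.4% and 21.1% of its UMIs, and without these cells the ratio was -1.23. The call was lost when the 10 genes were kept among the clustering genes and when 10 CPM was added in place of 1. Cidec was also lower in epithelial-like cells of the library labelled tamoxifen, where it was under 10 CPM and so not called. Its levels there were 2.09 and 0.430 CPM before depletion and 2.11 and 0.585 CPM after it. Fabp1 was higher by 0.74 (0.68 to 0.81) and Lepr by 0.52 (0.46 to 0.57), while Cd36 (-0.65), Fabp4 (-0.45) and Fabp5 (-0.29) were lower. The other 4 genes lay between -0.15 and -0.09, and Pparg, Lpl and Abcg1 were at 0.12, 0.03 and 0.02 when the 10 genes were kept for clustering. In all 2 of the 10 were above 0 and 8 below, with a median of -0.15 against -0.03 for all 7883 genes.

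The ratios were also taken within each cluster, and their difference between clusters was not tested. Within the Wfdc21-led cluster none of the 10 was at least 2-fold apart, where 0.387% of genes were, and 5 lay above 0 and 5 below, with a median of -0.01. Within the Htr2c-led cluster 1 of the 10, Cidec, was apart, where 0.552% of genes were, and 2 lay above 0 and 8 below, with a median of -0.20. Fabp1 was higher in the library labelled tamoxifen in both clusters, at 245 and 434 CPM in the Wfdc21-led and 180 and 306 CPM in the Htr2c-led cluster, and so was Lepr. Fabp5 was slightly higher in the Wfdc21-led cluster and lower in the Htr2c-led one, with log2 ratios of 0.09 and -0.51. Cidec was lower in both, at 19.3 and 9.59 CPM and at 12.2 and 4.53 CPM.

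**Figure D4:**
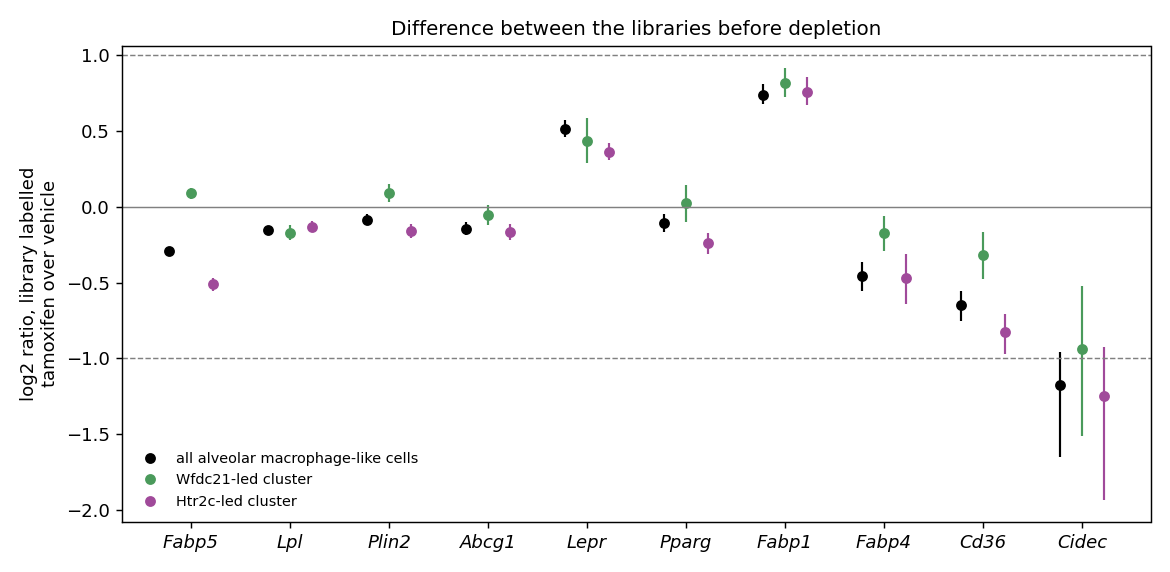
Log2 ratio of each gene, library labelled tamoxifen over vehicle library before depletion with 1 CPM added, in all alveolar macrophage-like cells (black) and in their Wfdc21-led (green) and Htr2c-led (purple) clusters, with 95% intervals of the ratio without added CPM. Dashed lines mark 2-fold. Fabp1 and Lepr lie above 0 for all 3 sets of cells, and Cidec, Cd36, Fabp4, Lpl and Abcg1 lie below it. The Pparg, Fabp5 and Plin2 points lie on both sides.

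The dividing myeloid cells of the Top2a-led cluster gave the same order for Fabp1 and Lepr. This cluster holds macrophages of more than 1 kind and was left without a name. Mpo and Elane were among its leading genes, and part of its cells carried neither mostly alveolar nor mostly C1q macrophage markers. Over the whole cluster (194 and 170 cells) Fabp1 was at 53.6 and 150 CPM, Lepr at 30.8 and 88.7 CPM and Pparg at 52.0 and 107 CPM, all at least 2-fold higher in the library labelled tamoxifen, where 1.92% of genes were apart. The Pparg call was lost when cells were weighted equally (log2 ratio 0.74 in place of 1.02). Cells of this cluster that carried mostly alveolar macrophage markers numbered 86 and 98. In these Fabp1 was at 211 and 384 CPM, Lepr at 118 and 223 CPM and Pparg at 195 and 269 CPM, each less than 2-fold apart. Fabp4 was at 160 and 73.7 CPM there and Cd36 at 166 and 93.2 CPM.

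Other genes of the pathway were taken from 7 lists with 91 entries in all. In alveolar macrophage-like cells no listed gene was at least 2-fold apart between the labelled libraries. Of the PPARG circuit list 18 of 20 genes reached 10 CPM, with a median log2 ratio of -0.04. Its most abundant members, the transcription factors Cebpb and Bhlhe40, were at 2293 and 2032 CPM and at 353 and 369 CPM. Of the lipid uptake list 12 of 16 reached 10 CPM (median 0.03), led by the gene of the oxidised lipoprotein receptor, Olr1, at 531 and 545 CPM, and the cholesterol carrier Npc2, at 543 and 533 CPM. Of the lipid droplet list 8 of 17 did (median -0.15), led by Soat1, which esterifies cholesterol, at 254 and 244 CPM, and the monoglyceride lipase gene Mgll, at 253 and 226 CPM.

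The cholesterol efflux list had 8 of 9 genes at 10 CPM or more (median 0.02), led by the cholesteryl ester hydrolase gene Nceh1, at 284 and 292 CPM, and by Apoe, at 143 and 149 CPM. The fatty acid oxidation list had 14 of 15 (median -0.14), among them the carnitine transferase gene Cpt1a, at 108 and 117 CPM. Of the leptin signalling list 6 of 7 did (median -0.04). Its leading genes were Ptpn1, a phosphatase that dampens leptin signalling, at 417 and 438 CPM, and Stat3, the factor downstream of the receptor, at 183 and 185 CPM.

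Genes whose pattern was most like that of a member were found by Pearson r of log2(CPM + 1) over 38 values, the populations and libraries with at least 50 cells, which share libraries and depth. Lpl was most like Lipa (r = 0.902), the lysosomal acid lipase gene, then Slc6a4 (0.875) and Dab2 (0.839). Plin2 was most like the ferritin light chain gene Ftl1 (0.930), its copy Ftl1-ps1 (0.905), whose reads can be split with it, and Grik3 (0.877). Fabp1 was most like Trim29 (0.896) and the ribonuclease genes Ang5 (0.895) and Ang4 (0.888). Pparg was most like Flvcr2 (0.830), Slc52a3 (0.809) and Abcc5 (0.796), and Lepr was most like Adarb1 (0.868), Plekhg1 (0.844) and Rit1 (0.838).

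Abcg1 was most like Tm6sf1 (0.882), Arhgap25 (0.874) and Slfn2 (0.870), and among the genes most like Cidec were Htr2c (0.759) and Abhd17c (0.737). Fabp4 was most like Klhl5 (0.879), 4930545L23Rik (0.867) and the thrombomodulin gene Thbd (0.844), an endothelial gene. Cd36 was most like the Wnt receptor gene Fzd4 (0.832), Smagp (0.831) and Mcf2l (0.825). Fabp5 was most like Cpne8 (0.803), Rnf144b (0.787) and Pde4d (0.785). No gene appeared under more than 1 member.

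In other myeloid cells the library labelled tamoxifen was higher for several of the 10, on small numbers of cells. In monocyte-like cells (137 and 106 cells), Fabp5 was at 245 and 544 CPM and Lpl at 46.6 and 126 CPM, and these 2 with Fabp1 and Lepr were at least 2-fold higher, where 5.03% of genes were apart. Without the 10 cells with most UMIs of the gene, Fabp5 (149 and 315 CPM) and Lpl (9.23 and 23.1 CPM) kept that difference. With each cell assigned by its own marker UMIs in place of its cluster, the log2 ratio of Fabp5 was 0.41, under 2-fold, in place of 1.15. All Fabp1 and Lepr UMIs of these cells were in 3 cells of the vehicle library and in 6 and 8 cells of the other. In C1q macrophage-like cells (385 and 338 cells), Fabp1 was at 0.615 and 13.4 CPM and Lepr at 1.54 and 13.6 CPM, both at least 2-fold higher, and Cd36 was lower at 38.6 and 15.5 CPM, where 0.857% of genes were apart. With each cell assigned by its own marker UMIs the log2 ratio of Lepr was 0.58 in place of 2.52, so the call was lost. The 10 highest cells held 88.2% of the 76 Fabp1 UMIs and 83.1% of the 77 Lepr UMIs of the library labelled tamoxifen. A single cell held 82 of the 251 Cd36 UMIs of the vehicle library, and without the 10 highest cells Cd36 was at 12.3 and 7.29 CPM, less than 2-fold apart.

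In the Cd209a-led cluster (901 and 464 cells), left without a name by the marker rule, Lepr was at 38.4 and 121 CPM and Fabp1 at 4.20 and 12.0 CPM, where 1.03% of genes were apart. The Lepr difference was as large without the 10 highest cells, at 12.8 and 56.3 CPM. The 9 alveolar macrophage markers summed to 1088 and 1069 CPM in this cluster, 323 and 462 CPM in C1q macrophage-like cells, 215 and 451 CPM in monocyte-like cells and 55.8 and 128 CPM in T cell-like cells. Their part in the Fabp1, Lepr, Lpl and Fabp5 values of these populations was not tested. Neutrophil-like cells had none of the 10 apart, where 3.93% of genes were, but only 5 of the 10 reached 10 CPM there. Fabp1 stayed just under that minimum, at 1.59 and 9.997 CPM (4 and 19 UMIs, log2 ratio 2.085), and so was not called. In dendritic cell-like cells 1 gene, Fabp4, was apart (48.2 and 7.35 CPM), where 2.98% were, and 76 of its 122 UMIs in the vehicle library were in 1 cell.

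Lymphocytes and endothelial cells differed in how many of the 10 were apart. In T cell-like cells 6 of the 10 reached 10 CPM. Of these only Pparg was apart, at 55.1 and 15.9 CPM (465 and 79 UMIs), where 1.56% of genes were. Fabp1, under that minimum, was at 1.30 and 7.83 CPM in T cell-like cells (11 and 39 UMIs). Of the Pparg UMIs of T cell-like cells, 327 and 22 were in the small cluster led by Cd163l1, Il17a and Trdc, the last a gene of the delta T cell receptor chain, at 299.5 and 40.0 CPM in 105 and 58 cells, while the cluster led by Foxp3, the regulatory T cell factor, was at 41.2 and 27.6 CPM. Weighting cells equally gave a log2 ratio of -0.99, just under 2-fold. In B cell-like cells Pparg, Fabp1 and Plin2 were higher, where 5.61% of genes were apart, but these rest on 15, 14 and 82 UMIs of the library labelled tamoxifen, and a single cell held 61 of the 82 Plin2 UMIs. The Pparg ratio changed direction there with each cell assigned by its own marker UMIs (log2 ratio -0.81 in place of 2.05) and with doublets kept (-0.45). In endothelial-like cells (160 and 154 cells) none of the 10 was apart before depletion, where 4.18% of genes were. Fabp4, which carries fatty acids across endothelium, was at 615 and 1022 CPM there before depletion and at 1231 and 1403 CPM after it. Before depletion its UMIs lay in 49 and 53 of these cells. A single cell held 553 of the 1845 UMIs of the library labelled tamoxifen. Without the 10 highest cells of each library Fabp4 was at 257 and 329 CPM before depletion and at 635 and 537 CPM after it.

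In epithelial-like cells 5 of the 10 reached 10 CPM before depletion (937 and 963 cells). None of these 5 was at least 2-fold apart, where 2.17% of genes were. After depletion (5366 and 5888 cells) 6 of the 10 reached 10 CPM. Of these, Fabp1 and Lpl were lower in the library labelled tamoxifen, where 1.91% of genes were apart. None was apart the same way in both pairs of libraries, where 1.37% of genes were. Under 10 CPM, Cidec was at 2.09 and 0.430 CPM before depletion (57 and 13 UMIs) and at 2.11 and 0.585 CPM after it. Fabp4, also under 10 CPM, was at 2.46 and 2.65 CPM before depletion and at 8.75 and 1.23 CPM after it. Fabp1 was at 11.9 CPM (1331 UMIs) in the vehicle library after depletion and at 0.189 CPM (21 UMIs) in the library labelled tamoxifen. Lpl was at 11.2 CPM (1250 UMIs) and 2.07 CPM (230 UMIs). The more abundant Cd36 (422 and 447 CPM), Plin2 (149 and 163 CPM), Pparg (47.3 and 49.6 CPM) and Fabp5 (1370 and 1056 CPM) were less than 2-fold apart.

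After depletion nearly all epithelial Fabp1 came from 1 cluster, led by Ttr, Spink1, Agr2 and Apoa1, of which Ttr and Apoa1 are known from the liver. It held 1304 of the 1331 UMIs of the vehicle library after depletion, in 195 of 1223 cells, and 19 of the 21 UMIs of the library labelled tamoxifen, in 11 of 124 cells. Within the cluster Fabp1 was at 33.7 (31.9 to 35.6) and 4.04 (2.43 to 6.31) CPM after depletion, and at 28.0 (24.3 to 32.2) and 5.61 (1.53 to 14.4) CPM before it, where the cluster held 138 and 15 cells with 198 and 4 Fabp1 UMIs. Fabp1 was thus lower in the library labelled tamoxifen within the cluster as well. The highest cell of the vehicle library after depletion held 100 Fabp1 UMIs. Hnf4a in the cluster was at 103 and 164 CPM before and at 83.1 and 113 CPM after depletion. The log2 ratio of epithelial Fabp1 after depletion was -3.44, but -0.43 without the cluster and -0.47 with a finer clustering (Leiden resolution 2), where the call was lost.

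Lpl followed another pattern in the same cluster. It was at 29.3 (27.6 to 31.1) and 27.02 (22.5 to 32.2) CPM after depletion, so both libraries overlapped within counting error there, and without the cluster the log2 ratio of epithelial Lpl was -0.41 in place of -1.99. Fabp4 in the cluster was at 23.7 and 9.79 CPM, but 312 of its 916 UMIs in the vehicle library were in 1 cell. Cidec was at 4.53 (175 UMIs) and 1.92 (9 UMIs) CPM. Pparg was at 88.6 and 81.5 CPM.

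After depletion the Fabp1 of this cluster did not come with macrophage transcripts. The 61 epithelial-like cells with 5 or more Fabp1 UMIs in the vehicle library after depletion, all in the Ttr-led cluster, held 1066 Fabp1 UMIs and no UMI of Marco, Ear1, Atp6v0d2, Itgax, Chil3 or Ear2, 1 UMI of Ptprc, which encodes CD45, and 1871 of the epithelial gene Epcam. Before depletion it was otherwise. The 10 and 11 epithelial-like cells with 5 or more Fabp1 UMIs held 140 and 168 UMIs of Marco, Ear1, Atp6v0d2 and Itgax together. The epithelial-like cluster led by Ly6i (17 and 32 cells) had Fabp1 at 61.8 and 83.8 CPM and Lpl at 352 and 213 CPM, and these 4 macrophage markers summed to 572 and 333 CPM there. After depletion the same cluster (38 and 40 cells) had no Fabp1 UMI, 0 and 2 Lpl UMIs, and 2.91 and 0 CPM of the 4 markers.

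Leaving out epithelial-like cells with any UMI of the 4 markers changed the comparison before depletion. It removed 183 and 247 cells and left Fabp1 at 6.38 (5.33 to 7.58) and 1.15 (0.735 to 1.71) CPM, and Lpl at 10.5 and 2.72 CPM. After depletion 118 and 94 cells were removed, and Fabp1 was at 12.2 and 0.192 CPM and Lpl at 11.3 and 2.08 CPM. Lpl then was at least 2-fold lower in the library labelled tamoxifen in both pairs, where 1.48% of genes were apart the same way. The interval of its vehicle level before depletion (9.12 to 12.0) spans the minimum of 10 CPM. Fabp1 had the same direction but stayed under 10 CPM before depletion. The Ttr-led cluster, where Lpl was about level after depletion, held 138 and 15 cells before depletion and 1223 and 124 after it, with no cells left out. The choice to leave out cells with a marker UMI was made after the values were seen. The libraries after depletion are portions of the same suspensions as those before it, so the pairs are not replicates.

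**Figure D5:**
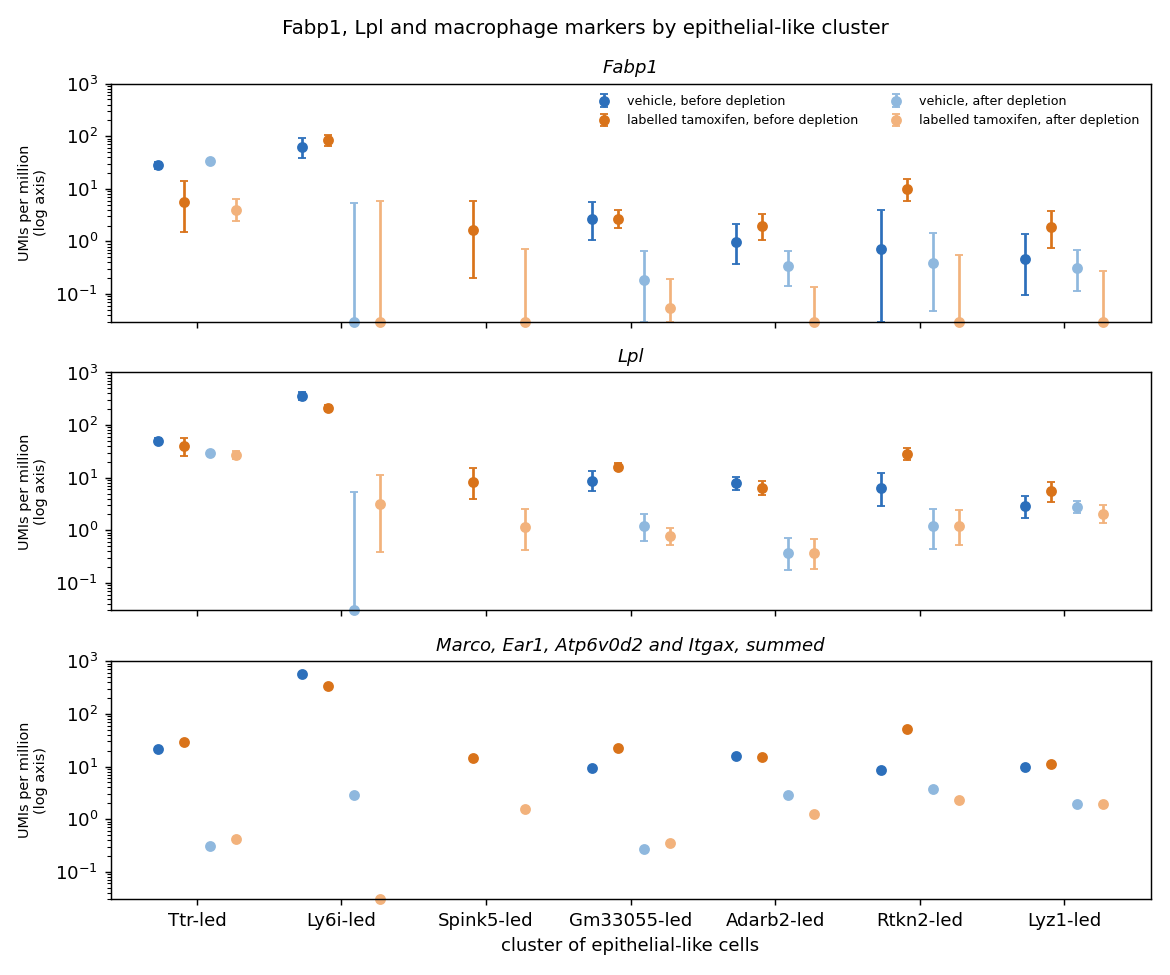
Fabp1 (top), Lpl (middle) and the sum of 4 alveolar macrophage markers (bottom) in CPM (log axis; 0 is drawn on the lower edge) in 7 clusters of epithelial-like cells, with 95% Poisson intervals for the genes; a cluster with under 10 cells in a library has no point. Darker symbols are before depletion and lighter ones after it, with vehicle in blue and labelled tamoxifen in orange. Fabp1 in the Ttr-led cluster is higher in the vehicle libraries, Lpl there is about level after depletion, and in the Ly6i-led cluster both genes fall together with the macrophage markers after depletion.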

How the data were processed

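UMI counts per gene and cell, deposited by the authors without normalization, were used from 4 libraries of 92644997 to 144994771 UMIs. The software version is Cell Ranger 7.0.1 per the file headers, while the submitters' processing notes name version 7.2.0 and build mm10. Barcodes needed 200 genes or more and no more than 20% mitochondrial UMIs. Those with a doublet score above 0.25 were removed, because the automatic threshold called 188, 1, 1 and 0 barcodes. Cells of all libraries were clustered with scanpy 1.11.5 (2000 variable genes less 4 of the 10 genes, 40 components, 15 neighbours, Leiden resolution 1).

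A cluster took a name from at least 3 markers found in 10% of its cells, with no other class leading its top 10 genes and 50% or more of its cells carrying that class's markers. The last condition, and joining both monocyte lists, were chosen after the data were seen. The 10 genes and all lists were chosen with earlier results of these data known. Genes were apart at 2-fold or more with at least 10 CPM in either library, and 1 CPM was added before ratios. UMIs were summed per population and given per 1e6. Named genes were the 10, the 3 most alike by r for each, and the 2 most abundant of each pathway list where none was apart. Simulated counts were used to test the size rule. TMM scaling used edgeR 4.0.16. An allele of the genotype, and a gene that the naming rule selected, are not reported here. Gene models of GENCODE M21 held 32158 of the 32289 identifiers.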

Additional observations from a re-analysis of the deposited data

Results flagged for a closer look

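Genes at least 2-fold higher in 1 population and at least 2-fold lower in another were singled out. Each value is a log2 ratio, library labelled tamoxifen over vehicle library, from 1 library per group, and the difference between populations was not tested.

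Pparg was lower in T cell-like cells (-1.74) and higher in B cell-like cells (2.05) and in the Top2a-led cluster (1.02). The B cell value rests on 6 and 15 UMIs and turned to -0.81 with each cell assigned by its own marker UMIs and to -0.45 with doublets kept. The value in the Top2a-led cluster was 0.74, under 2-fold, with cells weighted equally. In its cells that carried mostly alveolar macrophage markers (86 of 194 and 98 of 170), Pparg was at 195 and 269 CPM, also under 2-fold.

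Fabp1 was lower in epithelial-like cells after depletion (-3.44). Before depletion it was higher in C1q macrophage-like cells (3.16), B cell-like cells (2.34), monocyte-like cells (1.72), the Top2a-led cluster (1.47) and the Cd209a-led cluster (1.32). In the last 5 the level in the library labelled tamoxifen was 150 CPM in the Top2a-led cluster and between 12.0 and 13.4 CPM in the others. The ratios in neutrophil-like, T cell-like and endothelial-like cells before depletion were 2.085, 1.94 and 1.84, uncalled because both levels were under 10 CPM. In the cells of the Top2a-led cluster that carried mostly alveolar macrophage markers, Fabp1 was at 211 and 384 CPM, under 2-fold.

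Lpl was higher in monocyte-like cells before depletion (1.42) and lower in epithelial-like cells after it (-1.99). The 10 highest monocyte-like cells held 82.0% and 84.2% of the Lpl UMIs there. The part of alveolar macrophage transcripts in the monocyte value was not tested.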

How the results depend on the processing

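Alternatives were scaling, cell weights, cell filters, doublets, clustering, a gate on each cell, added CPM and the size rule, with 9 more chosen after seeing the data. The number of the 10 genes apart in alveolar macrophage-like cells was 1, but 0 with the 10 genes kept for clustering, with 10 CPM added or in the Wfdc21-led cluster alone, and 3 at 1.5-fold. The number apart the same way in both epithelial pairs was 0, but 1 without cells carrying a macrophage marker, where 1.48% of all genes were. The number highest in alveolar macrophage-like cells was 7. With the Htr2c-led cluster alone it was 2 where the other alveolar macrophage-like cells were ranked as a population of their own, and 7 where they were left out of the ranking. Listed pathway genes stayed at 0 in the 3 settings run. In B cell-like cells the log2 ratio of Pparg turned to -0.45 with doublets kept and -0.81 with the gate, and that of Plin2 to -1.85 without the 10 highest cells. In alveolar macrophage-like cells Fabp1 ranged from 0.71 to 0.94 and Lepr from 0.36 to 0.74. Epithelial Fabp1 after depletion ranged from -5.38 with 0.1 CPM added to -0.43 without the Ttr-led cluster. Leaving out cycling clusters was not run, because no alveolar macrophage-like cluster was led by cell cycle genes. No paired analysis was possible because each group is 1 library. Low counts limit the B cell-like values, such as Fabp1 on 4 and 14 UMIs.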
